A study of Homo sapiens with 4 samples.

Results

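Small RNA genes with a peak in RNA that an antibody to SRSF1, a splicing factor, had recovered are described here, 7 in number. They are the minor spliceosome RNA genes RNU11, RNU4ATAC and RNU6ATAC, the U1-like genes RNU1-88P and RNU1-11P, and the U3 genes SNORD3A and SNORD3C. They were chosen from the deposited peak lists because a peak region overlapped the annotated gene by at least 1 bp. They are 7 of the 58735 annotated genes and hold 6 of the 229 wild type regions and 6 of the 194 regions of cells overexpressing ZCCHC7 (ZCCHC7-OE). That a peak lies in these genes is therefore how they were found and not a result.

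The cells were of the RKO line, from a human colorectal cancer, and were wild type or ZCCHC7-OE. ZCCHC7 is a zinc-knuckle protein of the TRAMP complex, which passes nuclear RNA to the exosome for trimming or decay. Each genotype had 1 input library and 1 immunoprecipitation (IP) library, 4 libraries in all. The labels name the SRSF1 antibody as the treatment of the IP libraries, while their protocol also describes an antibody to m6A, so the recovered RNA is called IP RNA here. The promoter and vector used for overexpression, and whether the wild type cells carried an empty vector, are not named in the labels. The IP libraries held 1070075 (wild type) and 690876 (ZCCHC7-OE) tags and the inputs 142404 and 97545. With 1 library per group there is no replicate check, and all intervals below are 95% intervals for counting error only. They treat every tag as a separate count. Duplicate tags were kept, so the intervals may be too narrow, and bounds close to 1 are uncertain. None of the 8 colon epithelium markers looked up (EPCAM, CDH1, KRT8, KRT18, KRT20, CDX2, VIL1 and LGALS4) had a peak, and a peak list does not measure expression.

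The minor spliceosome removes a rare class of introns whose splice sites differ from the usual consensus. U11 pairs with the 5′ splice site of such an intron and acts together with U12, which pairs with the branch point. U4atac and U6atac then enter with U5, and U6atac forms part of the catalytic centre after U4atac has left. U1 has the role of U11 in the major spliceosome, where SR proteins such as SRSF1 are known to help it bind the 5′ splice site. U3 is a box C/D small nucleolar RNA that guides early cleavages of the ribosomal RNA precursor.

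Of RNU11, RNU4ATAC and RNU6ATAC, RNU11 had the most tags in the IP libraries. The gene (ENSG00000274978) lies on the plus strand of chromosome 1 from 28648600 to 28648733, is 134 bp long and has 1 exon. AL360012.1 covers almost the same bases on the same strand, so their tags cannot be told apart. At the summit, the position where most extended fragments overlap, the wild type IP library had 521 tags, or 487 per 1000000 tags of the library (RPM; 446 to 531). Its input had 22 tags, or 154 RPM (96.8 to 234). The ZCCHC7-OE IP library had 680 tags, or 984 RPM (912 to 1061), and its input 17 tags, or 174 RPM (102 to 279). Each IP value lay above the interval of its own input, and the 2 inputs lay within each other's intervals. By these counts the IP library held 3.15 times the input level (2.06 to 5.07) in wild type and 5.65 times (3.50 to 9.75) in ZCCHC7-OE. The caller places IP and input fragments differently, so at a short RNA the 2 counts do not cover the same tags. This holds for every level over input below, and its effect was not tested.

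RNU6ATAC, the gene of the catalytic U6atac RNA, came next. It lies on the minus strand of chromosome 9 from 134164439 to 134164564 (ENSG00000221676, 126 bp, 1 exon), and no other annotated gene overlaps it. The IP libraries had 82 tags in wild type, or 76.6 RPM (60.9 to 95.1), and 81 in ZCCHC7-OE, or 117 RPM (93.1 to 146). Both inputs had 3 tags at the summit, or 21.1 RPM (4.34 to 61.6) for wild type and 30.8 (6.34 to 89.9) for ZCCHC7-OE. The IP level was 3.64 times the input level (lower bound 1.20) in wild type and 3.81 times (lower bound 1.26) in ZCCHC7-OE. The 2 genotypes thus had nearly the same level over input here, known only within wide limits.

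RNU4ATAC, the gene of U4atac, the RNA that escorts U6atac into the spliceosome, held fewer tags. It lies on the plus strand of chromosome 2 from 121530881 to 121531007 (ENSG00000264229, 127 bp, 1 exon), within introns of CLASP1, which runs on the other strand, and of AC012447.1, on the same strand. The peak lists carry no strand, so tags of these host genes cannot be told apart from those of RNU4ATAC. The wild type IP library had 32 tags, or 29.9 RPM (20.5 to 42.2), and no input tag lay at the summit. A count of 0 allows up to 3 input tags, or 21.1 RPM. The measured IP level was 1.42 times that limit, but the lower end of its interval lay below it. The ZCCHC7-OE IP library had 35 tags, or 50.7 RPM (35.3 to 70.5), over 1 input tag, a ratio of 4.94 (0.831 to 201). IP tags were thus nearly equal in number, but the libraries differed in depth, and the levels were 29.9 and 50.7 RPM. The input went from 0 tags to 1.

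The authors' measures of the RNU4ATAC peak were lower in ZCCHC7-OE. The caller's input background was that 1 tag there, and the genome-wide floor of 0.0998 in wild type. The authors' fold, which is the IP signal plus 1 over the input background plus 1, was 4.78 for wild type against 2.97 for ZCCHC7-OE, and -log10 of the authors' p-value was 7.12 and 2.44. The value of 2.44 was the lowest in the ZCCHC7-OE list, shared with other regions at rank 192 of 194. It lay next to the caller's threshold of 0.005, which is 2.30 on that scale. The authors' q-value for RNU4ATAC was below 0.05 in wild type alone.

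**Figure D1:**
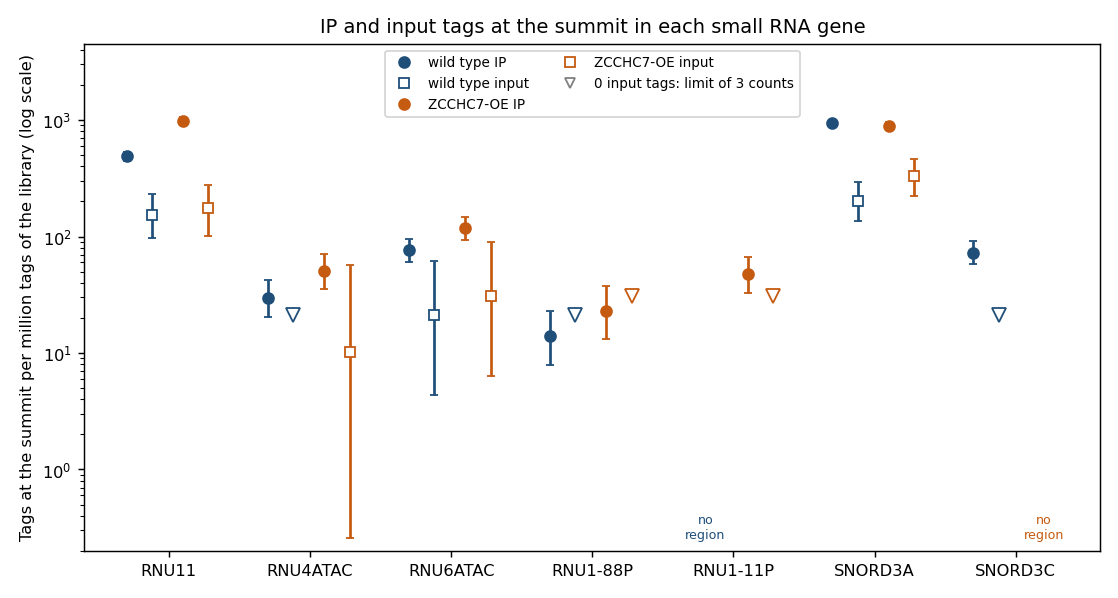
Tags at the summit per 1000000 tags of the library (log scale) for the 7 genes; filled circles are IP libraries and open squares inputs, blue for wild type and orange for ZCCHC7-OE, with 95% exact Poisson intervals. Open triangles mark the limit that 0 input tags allow, 21.1 RPM in wild type and 30.8 in ZCCHC7-OE; RNU11 and SNORD3A stand above the other genes in IP and input alike.

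The U1-like genes held few tags. RNU1-88P lies on the minus strand of chromosome 6 from 36639545 to 36639672 (ENSG00000238554, 128 bp, 1 exon, a pseudogene in RefSeq), with no other annotated gene over it. The IP libraries had 15 tags in wild type, or 14.0 RPM (7.85 to 23.1), and 16 in ZCCHC7-OE, or 23.2 RPM (13.2 to 37.6), and the inputs none at the summit. Both IP levels were below the limit that 0 input tags allow, so no fold over input is given. This gene was at the edge of the list in wild type, with -log10 p of 2.33. That was the lowest value there, shared with other regions at rank 190 of 229. With 1 tag more in ZCCHC7-OE, -log10 p was 4.24. The caller tests the whole part of the IP signal at input depth, which was 1 in wild type (a signal of 1.996) and 2 in ZCCHC7-OE (2.26). Recomputing both p-values in this way gave the deposited numbers.

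RNU1-11P had a region in ZCCHC7-OE alone. It lies on the plus strand of chromosome 6 from 13214056 to 13214219 (ENSG00000206702, 164 bp, 1 exon, a pseudogene in RefSeq), within an intron of PHACTR1 on the same strand. The region began 95 bp before its 5′ end, and tags of PHACTR1 RNA cannot be told apart from those of RNU1-11P. The ZCCHC7-OE IP library had 33 tags, or 47.8 RPM (32.9 to 67.1), and its input none at the summit. The measured level was 1.55 times the limit of 3 input tags, 30.8 RPM. The lower end of its interval was just above that limit. The limit is 1-sided, though, and lower than the upper end of an interval built like the others. A level above the input is therefore not shown. The authors' fold was 5.28, and their q-value passed 0.05. The wild type list has no region here, so its IP level is not known and no difference between the genotypes is shown.

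A further U1 gene, chosen after its values were seen and not among the 7, had more tags than either. It is listed under the Rfam name of the U1 family, RF00003, on the minus strand of chromosome 1 from 144560666 to 144560829. It had 89 IP tags in ZCCHC7-OE, or 129 RPM (103 to 159), at an authors' fold of 2.71 and an input background of 4 tags, and no region in wild type. Its authors' q-value did not pass 0.05.

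U3 gave the highest count of the 7 genes in wild type. SNORD3A (ENSG00000263934) is annotated on the plus strand of chromosome 17 from 19188016 to 19188714, 699 bp in 1 exon, and RefSeq gives the mature RNA as its leading 217 bases. The wild type IP library had 1010 tags, or 944 RPM (887 to 1004), over 29 input tags, or 204 RPM (136 to 292). The ZCCHC7-OE IP library had 617 tags, or 893 RPM (824 to 966), over 32 input tags, or 328 RPM (224 to 463). The IP levels of the 2 libraries had overlapping intervals, and so did the inputs, of which that of ZCCHC7-OE was the higher. The IP level was 4.63 times the input level (3.21 to 6.96) in wild type and 2.72 times (1.91 to 4.02) in ZCCHC7-OE.

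SNORD3C (ENSG00000264940), a second copy of U3, lies 950 bp beyond SNORD3A on the minus strand, from 19189665 to 19190245, with its mature RNA of 217 bases in RefSeq from 19190029 to 19190245. The wild type IP library had 78 tags there, or 72.9 RPM (57.6 to 91.0), and no input tag at the summit. The measured IP level was 3.46 times the limit of 3 input tags, 21.1 RPM. The lower end of its interval, 57.6, was also above that limit. The caller's background of 0.529 came from 36 input tags in the 10000 bp around the summit, a stretch that takes in SNORD3A with its 29. SNORD3A had 12.9 times the IP tags of SNORD3C. The 2 copies are near-identical, and the split of tags between them is uncertain. The names of the alignment files in the headers contain "uni", which the headers do not explain. Whether tags matching several copies were left out is therefore not known, and this holds for the U1-like genes too. ZCCHC7-OE had no region in SNORD3C, and the nearest one was that of SNORD3A, 1476 bp away.

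RNU11 and SNORD3A stood near the top of both lists by tags and by input, but not by the authors' fold. By IP tags RNU11 ranked 8 of 229 regions in wild type and 4 of 194 in ZCCHC7-OE, and SNORD3A 3 and 5. By input background RNU11 ranked 4 in both lists, and SNORD3A 3 and 2. By the authors' fold, however, RNU11 ranked 161 (fold 3.06) and 75 (5.39), and SNORD3A 99 (4.51) and 173 (2.67). Ranks by the authors' p-value were higher, 42 and 17 for RNU11 and 11 and 44 for SNORD3A. The background of 62% of the regions in wild type, and of 58.8% in ZCCHC7-OE, was the genome-wide floor, 0.0998 and 0.0716 input tags, where no input tag lay at the summit. Among the 7 genes, 2 of 6 were at the floor in each list.

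**Figure D2:**
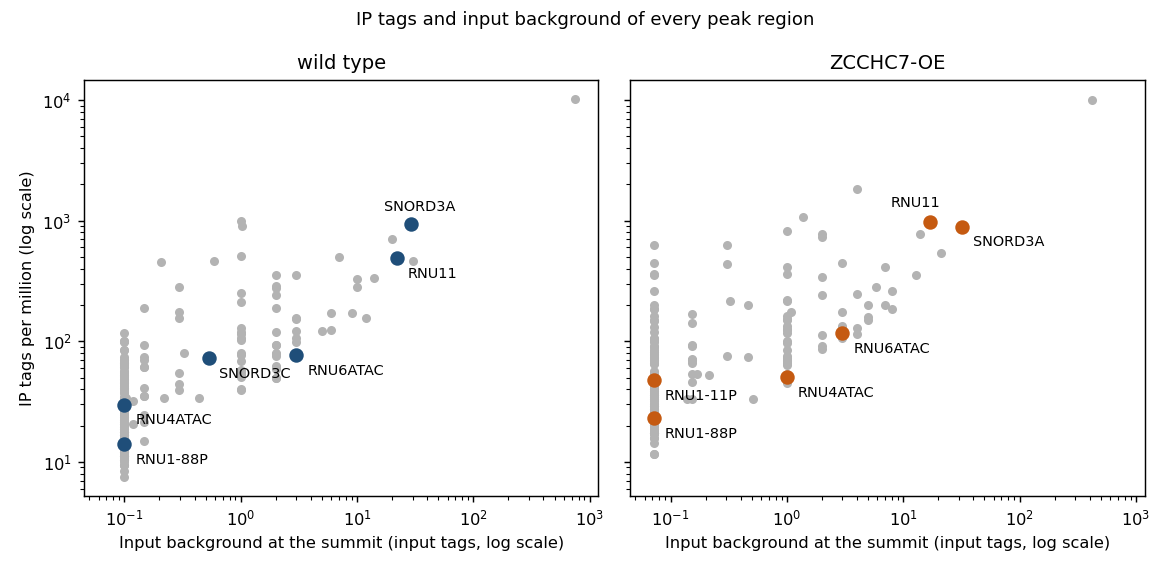
IP tags per 1000000 against the input background at the summit (both log scales) for every peak region of wild type (left) and ZCCHC7-OE (right); coloured points are the small RNA genes and grey points the other regions. RNU11 and SNORD3A lie at the right, with backgrounds of 22 and 29 input tags in wild type and 17 and 32 in ZCCHC7-OE, and RNU1-88P lies on the floor in both.

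In each list the fold of several genes was below the list's median, 4.04 in wild type and 4.62 in ZCCHC7-OE. This held for 3 of 6 genes in wild type and 4 of 6 in ZCCHC7-OE. The q-value of the authors passed 0.05 for 4 of 6 genes in wild type (RNU11, RNU4ATAC, SNORD3A and SNORD3C), against 44.5% of all regions. For ZCCHC7-OE it passed for 3 of 6 (RNU11, RNU1-11P and SNORD3A), against 52.1% of all regions. RNU11 and SNORD3A were the 2 genes that passed in both. These counts describe the lists the genes were chosen from, and nothing is read from them.

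The regions were longer than most of the RNAs they lay on. Every member region had 1 summit, and the summits all lay inside the annotated gene. The RNU11 region measured 241 bp (wild type) and 257 bp (ZCCHC7-OE) and reached 38 and 46 bp before the 5′ end and 69 and 77 bp past the 3′ end. The regions of RNU4ATAC (230 and 227 bp) and RNU6ATAC (230 and 239 bp) likewise held the whole gene. On the mature U3 of SNORD3A the regions covered 188 and 174 of the 217 bases, from 33 and 39 bp before the 5′ end. The SNORD3C region covered 194 of 217 bases, from 35 bp before the 5′ end.

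Summit positions, counted from 1 at the annotated 5′ end, were close between the libraries where tags were many. RNU11 had its summit at positions 77 (wild type) and 75 (ZCCHC7-OE). In SNORD3A it was at 71 in both, and in SNORD3C at 70, so the 2 copies of U3 had summits 1 base apart. As the copies are near-identical and the split of tags between them is uncertain, these may not be separate observations. RNU6ATAC had summits at 63 and 70. With fewer tags they lay farther apart, at 63 and 26 in RNU4ATAC and 27 and 55 in RNU1-88P, and RNU1-11P had its summit at 29. Tags were 138 bp (wild type) and 132 bp (ZCCHC7-OE) long, and fragments were extended to 147 and 154 bp, longer than RNU11, RNU4ATAC, RNU6ATAC and RNU1-88P. A summit therefore does not place a binding site within these RNAs.

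**Figure D3:**
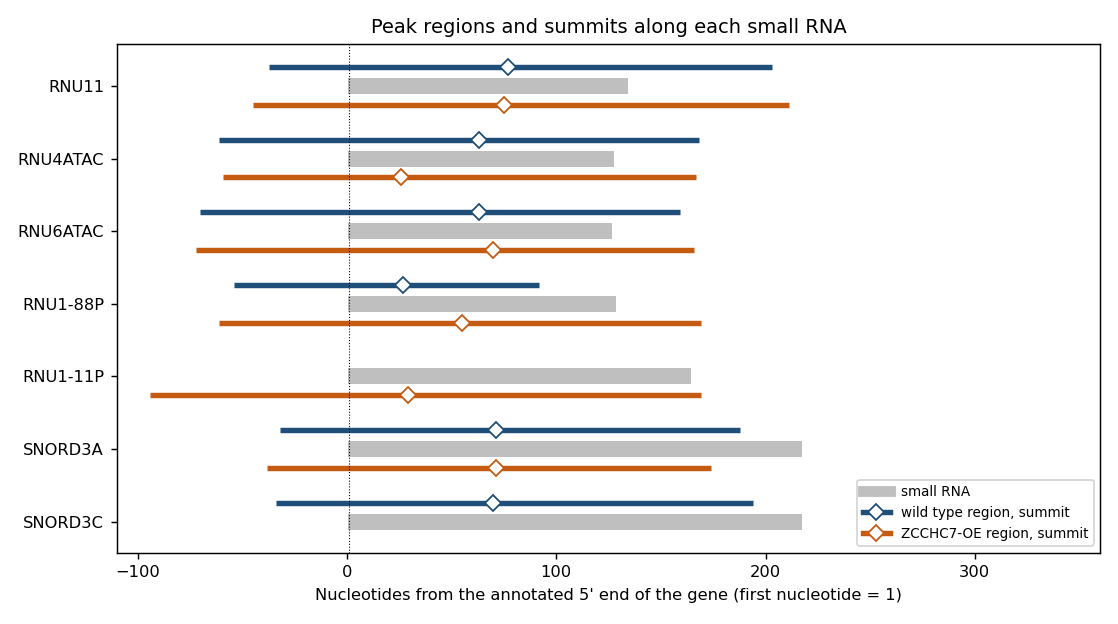
Peak regions (coloured lines) and summits (diamonds) of wild type (blue) and ZCCHC7-OE (orange) along each small RNA (grey bar; the mature RNA for the U3 genes), in nucleotides from the annotated 5′ end. The regions reach past both ends of RNU11, RNU4ATAC and RNU6ATAC, and the U3 summits lie at 70 and 71.

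Between the genotypes, IP tags per 1000000 at RNU11 were 2.02 times as high in ZCCHC7-OE as in wild type (1.80 to 2.27). The ratio was 1.69 (1.02 to 2.83) at RNU4ATAC, 1.53 (1.11 to 2.11) at RNU6ATAC, 1.65 (0.765 to 3.59) at RNU1-88P and 0.946 (0.855 to 1.05) at SNORD3A. The interval lay above 1 for RNU11, RNU4ATAC and RNU6ATAC, 3 of the 5 genes with a peak in both lists, and below 1 for none. Over all 140 loci with a peak in both lists it lay above 1 at 40% and below 1 at 4.29%. The median ratio of these loci was 1.30, or 0.38 on the log2 scale, against a median log2 ratio of 0.72 over the 5 genes. Taken as IP over the caller's background, the RNU4ATAC ratio turned the other way (-3.11 on the log2 scale), since the background went from the floor to 1 input tag. These ratios compare 2 libraries and not the genotypes.

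Set against that median, RNU11 and SNORD3A lay on opposite sides. RNU11 was 0.63 above it on the log2 scale (0.47 to 0.80), where 23.6% of the loci had intervals above, and ranked 26 of 140 from the highest ratio. SNORD3A was -0.46 from it (-0.61 to -0.32), where 12.9% of the loci had intervals below, and ranked 118. The intervals of RNU4ATAC, RNU6ATAC and RNU1-88P all held the median. Of the 10 pairs among the 5 genes, the ratio of RNU11 was 2.14 times that of SNORD3A (1.71 to 2.66 at a 99.5% level, set for 10 pairs), and that of RNU6ATAC was 1.62 times that of SNORD3A (1.003 to 2.60). The other 8 intervals at that level held 1. Among them, RNU11 over RNU6ATAC was 1.32 (0.815 to 2.14) and RNU11 over RNU4ATAC 1.19 (0.566 to 2.50), so that the minor spliceosome RNAs may differ by up to those bounds.

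**Figure D4:**
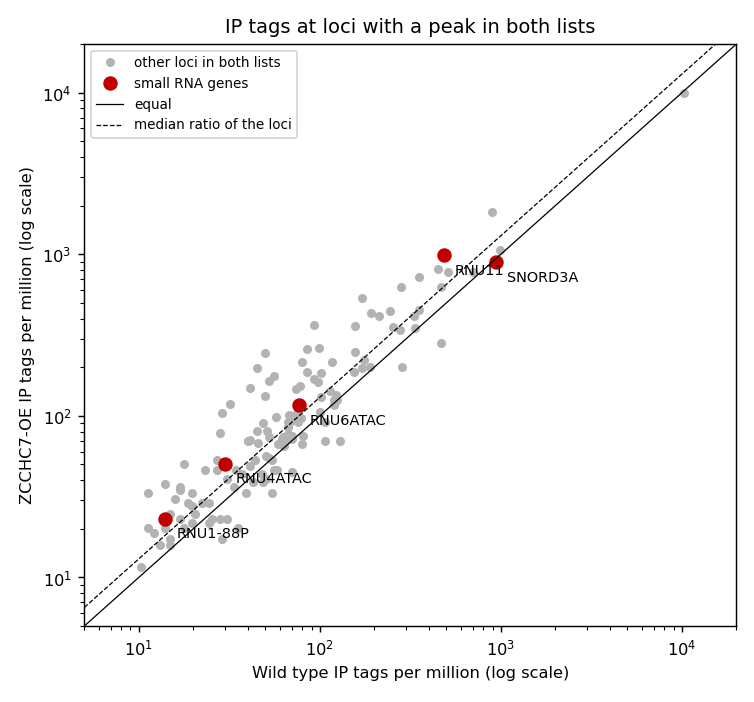
IP tags per 1000000 in ZCCHC7-OE against wild type (log scales) at the 140 loci with a peak in both lists; red points are the 5 small RNA genes and grey points the other loci, the solid line is equality and the dashed line the median ratio of 1.30. RNU11 lies above the dashed line and SNORD3A just under the solid line.

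The inputs did not have the depth to show whether the level over input differed between the genotypes. At RNU11 the input level (RPM) in ZCCHC7-OE was 1.13 times the wild type input (0.562 to 2.22), and the level over input 1.79 times as high (0.898 to 3.63). At SNORD3A the input was 1.61 times as high (0.944 to 2.76), and the level over input 0.587 times (0.339 to 1.01). At RNU6ATAC the level over input was 1.05 times as high (0.136 to 8.06). All 3 intervals held 1. Of the 30 loci whose input background was set by the tags at the summit in both lists, 3.33% had an interval above 1 and 0% below. The higher IP tags at RNU11 in ZCCHC7-OE are thus not shown to be a higher recovery over input.

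**Figure D5:**
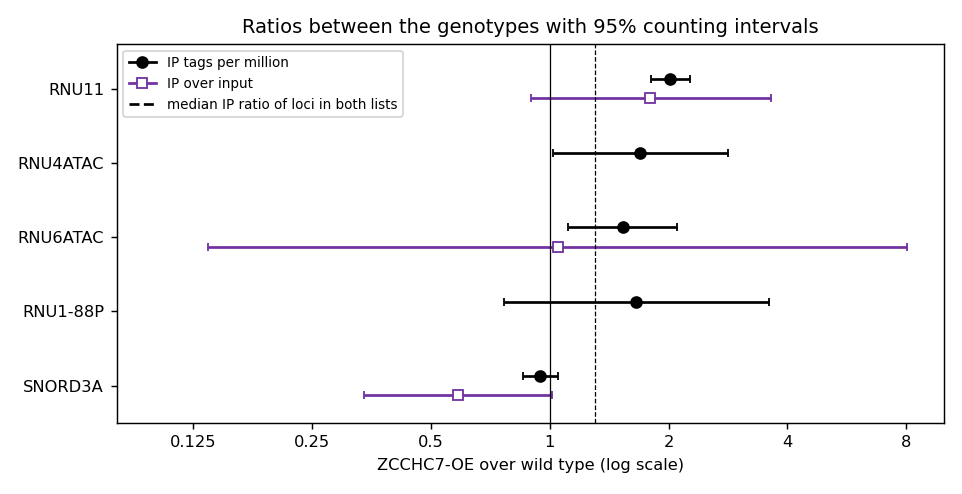
ZCCHC7-OE over wild type ratios (log scale) of IP tags per 1000000 (black circles) and of IP over input (open purple squares), with 95% exact conditional intervals; the dashed line is the median IP ratio of 1.30. The IP interval of RNU11 (1.80 to 2.27) lies right of both lines, and its interval over input (0.898 to 3.63) holds 1.

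The loci most like RNU11 in IP tags per 1000000 over the 2 IP libraries were EEF1A1, the gene of a translation elongation factor, and an intergenic site on chromosome 4. EEF1A1 had 451 (wild type) and 813 (ZCCHC7-OE), 0.30 from RNU11 (Euclidean distance on the log2 scale), and the site had 511 and 779, at 0.35. Nearest to SNORD3A were PVT1, a long non-coding RNA gene, with 986 and 1068 (distance 0.27), and NCL, the gene of the nucleolar protein nucleolin, with 706 and 777 (0.47). With 2 libraries such likeness is a description of these levels.

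Few relatives of these RNAs had a peak. Of the 9 minor spliceosome small RNAs looked up, RNU11, RNU4ATAC and RNU6ATAC had a region in both lists, and RNU12 and the 5 U5 genes had none. Over all annotated genes, 0.232% had a region in the wild type list, 0.216% in the ZCCHC7-OE list and 0.17% in both. Of annotated snRNA genes 0.21% and 0.314% had one, and of snoRNA genes 0.212% and 0.106%. By name, 1 of 6 U11 genes, 1 of 19 U4atac genes and 1 of 44 U6atac genes had a region, in each list the gene described here and none of its copies. Of 148 U1 genes, 1 had a region in wild type and 3 in ZCCHC7-OE. Of 62 U3 genes, 2 and 1 did. None of 92 U2 and 1313 U6 genes had one. In wild type the family member nearest to a region without touching it was RNU6ATAC26P, a numbered copy of U6atac, 2930 bp away. In ZCCHC7-OE it was SNORD3C, at the 1476 bp given above.

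Genes of the proteins that work with these RNAs were looked up in the same way. With regions in 0.232% and 0.216% of all annotated genes, lists this short would hold few or none, and nothing is read from their counts. The 12 annotated minor spliceosome proteins include ZRSR2, which recognises the 3′ splice site of minor introns, and RNPC3, which binds U12. None of the 12 had a region in either list. The same held for the 3 U1 proteins, the 12 Sm core and assembly proteins, the 14 major spliceosome small RNAs and the 18 annotated genes of other structured RNAs such as RN7SK and RMRP. Of 12 U3 and processome proteins, IMP4, a protein bound to U3 in the processome, had a region in ZCCHC7-OE. It had 16 tags there, or 23.2 RPM (13.2 to 37.6), and its authors' q-value did not pass 0.05. HBB, a haemoglobin gene and the 1 of 8 fibroblast and blood markers with a region, had 168 IP tags (wild type) and 250 (ZCCHC7-OE). These were 157 and 362 RPM, at authors' folds of 18.1 and 33.9. A gene without a region is not shown to lack bound RNA. It is a gene that the caller did not list, and the part that depth and tags matching several copies have in this was not tested.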

How the data were processed

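Per the file headers, the authors used MACS 2.1.0.20150420 to call peaks in each genotype from 1 IP library against 1 input, a p-value threshold of 0.005 and all duplicate tags kept. The deposited pileup is a signal: IP fragments over a summit, at the depth of the input. The fold is a deposited ratio, pileup plus 1 over local background plus 1, and significance is given as -log10 of the p-value and q-value, per the file headers. The aligner was not given in the sources used here. Lists were tied to genotypes by the initials in their headers. FastQC 0.11.5 and HOMER appear in the submitters' processing notes.

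Scaling pileups back to the IP depth gave whole tags within 0.1 at all 285 wild type and 238 ZCCHC7-OE summits. The input background is (pileup + 1) / fold - 1 from these exact values. It was whole, within 0.002, where it came from the summit window, and then gives the input tags there. Below 1 the summit window held none. The caller extends IP fragments downstream of the tag start but centres input fragments on it, so the 2 windows differ at short RNAs. Duplicates and molecules cannot be told apart there.

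Coordinates are those of the deposited annotation and correspond to GRCh38, since 18672 of 18676 protein-coding genes overlapped their place in the RefSeq table of GRCh38.p14. Intervals are exact Poisson for tags and exact conditional for ratios (Python 3.11.15, SciPy 1.17.1, NumPy 2.4.6, Matplotlib 3.10.9). They were run on counts simulated from the model they assume, without duplicates, which checks the computation alone. The genes and lists were chosen with earlier results of these data known. Named were the 7 genes, listed relatives with a region, genes overlapping them and the 2 loci nearest to RNU11 and SNORD3A. Alternatives were the peak rule, the summit, the scaling and the background. The comparison over input was chosen after the data were seen. Splicing tables were not used, as these RNAs have 1 exon.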

Additional observations from a re-analysis of the deposited data

How the results depend on the processing

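Of 65 alternative values, 52 kept their direction and stayed within 1.5 times the count or within the interval, and 13 moved or reversed. Among the 52 were all 36 tag counts and positions with the summit chosen in other ways. These had to stay because each region has 1 summit, as did the log2 ratios at the summit of highest fold. The 52 therefore overstate how stable the results are. With a q-value under 0.05, 3 genes had a peak in ZCCHC7-OE and 2 in both lists. At or above the list's median fold, 3 had one in wild type, 2 in ZCCHC7-OE and 0 in both. Fewer regions entered by construction. The log2 ratio of RNU11 was 0.63 relative to the median of shared loci, 1.28 with background subtracted and 0.84 as IP over background, and that of SNORD3A -0.46, -0.39 and -0.77. As IP over background RNU6ATAC came to 0.068, and RNU4ATAC turned to -3.11 because its background went from the floor to 1 input tag. Motif counts near the summits were not run, since no genome was used here. Leaving out a library was not possible with 1 per group. No paired analysis was possible because each group has 1 library and no replicate numbers. Input depth, 0 to 32 tags at the summits, limits every comparison over input.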
